A study of Mus musculus with 30 samples.

Results

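Of 54134 rows in the count table, 33 genes were lower in wildtype mouse neuromesodermal cells after a day of Gdf11 than without it. This set was then followed in cells with deletions in both Nr6a1 alleles (Nr6a1-/-). The members were chosen by their wildtype levels in CPM (a gene's count per 1000000 counts of its library). A member had a mean of at least 10 CPM at d4, a d4 mean at least 3 times the d4G mean, and d3 and d2 means each under 2 times the d4 mean, where the d4 mean was taken over replicates 1 and 3. These thresholds were met by 37 genes, of which Nr6a1, Sema3a, Sema3c and Epha5 were set aside by name. Because the wildtype d2, d3, d4 and d4G levels selected the genes, they are described here without a test, and so are the differences between genotypes at those stages. Tests were made only within Nr6a1-/- libraries and between genotypes at d2.5, a stage that played no part in the choice.

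The series holds 30 libraries of the Bruce4 mouse embryonic stem cell (ESC) line on its way to neuromesodermal progenitors, in 10 groups of 3 replicates. Every group received FGF2 from the start. Cells at d2 had FGF2 for 48 h, cells at d2.5 and d3 had the Wnt agonist CHIR99021 for a further 12 h or 24 h, d4 cells were kept in that medium for 24 h more, and d4G cells spent the same 24 h with Gdf11 added. Each stage was sampled in wildtype and in Nr6a1-/- cells, the latter a single clone with CRISPR/Cas9 deletions in each allele that remove the DNA-binding domain, so that genotype and clone cannot be told apart. The alleles still encode altered proteins, which the authors hold to be supportive of a functional null. The words "without Nr6a1" below refer to these cells. The ESCs had been grown on feeder cells that were depleted before differentiation. Replicates carry numbers only and are not stated to be separate cultures, so the p-values measure the spread between these libraries, which may be technical.

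Gdf11 is a secreted ligand of the TGF-β superfamily that signals through activin receptors and the transcription factors Smad2 and Smad3. In the mouse embryo it acts in the tail end, where it helps to set the point at which trunk formation gives way to tail formation. Neuromesodermal progenitors are the cells of that region that supply spinal cord and paraxial mesoderm, and Nr6a1 is an orphan nuclear receptor expressed in them. Notch and FGF signalling are known to run in the same tissue, where the Notch targets Hes7 and Hes5 mark the segmentation clock of the presomitic mesoderm and neural progenitors, respectively.

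Total counts ranged from 1570714 to 3688197 per library, so that a count of 0 in a library allows a level of up to 0.813 to 1.91 CPM, by counting error only. A level in these bulk libraries is an average over cells, and fewer cells of a type cannot be told apart from less RNA per cell. Libraries are from the 3′ end of transcripts, so levels were not set against each other per length. Chi-square per gene between replicates was 1.46 to 7 over 30 pairs, and no pair was counted as 1 sample. Wildtype d4 replicate 2, which the choice of members left out, had 1428 summed CPM over 22 ESC and epiblast genes, against 620 and 610 in replicates 1 and 3. The wildtype d4G libraries had 1152, 1085 and 1218 CPM over the same genes. The Nr6a1-/- d4 replicate 1 also stood apart. In it 16.9% of counts came from 89 ribosomal protein genes, against 13.0% and 12.3% in replicates 2 and 3, while the d4 wildtype libraries had 16.0% to 16.4%. Results that rest on that library are given with and without it. By the sample labels, 4 of 6 same-numbered pairs of d4 and d4G libraries carry the same index, as do 2 of 6 pairs of d3 and d4. The d4 and d4G pairs are those of wildtype replicates 1, 2 and 3 and of Nr6a1-/- replicate 1. The d3 and d4 pairs are those of Nr6a1-/- replicates 2 and 3. Every d4 library is in such a pair. The index was added before samples were pooled, so libraries of such a pair cannot come from the same pool. The pools are not stated. A difference between pools therefore cannot be told apart from the difference between d4 and d4G or d3 in these pairs.

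Nr6a1, the targeted gene, was itself lower with Gdf11 in both genotypes. Its wildtype libraries held 93.2, 97.6 and 93.3 CPM at d4 and 17.8, 19.9 and 18.2 CPM at d4G. The Nr6a1-/- libraries held 171, 221 and 253 CPM at d4 and 18.5, 29.3 and 38.7 CPM at d4G. These reads come from the 3′ end, outside the deleted part, and therefore do not check the change to the protein.

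Hes5 and Hes7 are shown first by sequence, because they are the members whose known activator, the Notch-dependent factor RBPJ, has a short and well-known site. RefSeq promoter windows (GRCm38.p6, 250 bases before and 50 bases after the gene start) were found for 15 members, with 16 promoters. The site GTGGGAA was searched on both strands. It is present in 3 of these 16 promoters (18.8%), those of Hes5, Hes7 and Frzb, and in 6.38% of all 32851 promoters. The site was added to the search after the members were seen, and Hes5 and Hes7 are known Notch targets. These shares are therefore a description and no test. RBPJ sites are in capitals, and those written TTCCCAC read GTGGGAA on the other strand. The Hes5 stretch lies at chr4:154960673-154960922 and the Hes7 stretch at chr11:69120203-69120452, both on the plus strand and both ending at the base before the RefSeq gene start. In GENCODE M21 Hes5 has the same start, whereas Hes7 begins earlier, so that the Hes7 stretch runs 49 bases into the gene as placed there.
Hes5: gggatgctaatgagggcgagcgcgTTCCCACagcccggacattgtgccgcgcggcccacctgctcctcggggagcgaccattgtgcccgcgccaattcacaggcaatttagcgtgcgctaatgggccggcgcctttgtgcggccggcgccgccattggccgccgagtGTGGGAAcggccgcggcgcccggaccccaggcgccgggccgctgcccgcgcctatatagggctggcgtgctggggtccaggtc
Hes7: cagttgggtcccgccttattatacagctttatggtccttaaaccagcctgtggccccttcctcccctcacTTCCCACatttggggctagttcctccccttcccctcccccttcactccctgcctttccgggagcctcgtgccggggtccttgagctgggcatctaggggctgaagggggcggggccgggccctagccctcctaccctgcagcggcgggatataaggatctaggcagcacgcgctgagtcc
The sites begin 226 and 83 bases before the start of Hes5 and 180 bases before that of Hes7. Of 2 short elements that Smad proteins bind, CAGACA is present in 3 of the 16 promoters against 21% of all promoters, and GGCGCC in 5 (31.2%), that of Hes5 included, against 11.9%. The GGCGCC element was also added after the members were seen. The CDX site TTTATGG occurs in 1 member promoter, that of Hes7, against 2.75% of all. The Smad palindrome GTCTAGAC, the TCF/LEF site ATCAAAG, the SOX site AACAAAG, the ETS site ACCGGAAGT and the NR6A1 site TCAAGGTCA occur in none of the 16, against 0.213%, 3.73%, 5.85%, 1.10% and 0.423% of all promoters. A match is a run of letters in this window and says nothing of binding.

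In wildtype cells d4 had the highest mean level of the stages without Gdf11 for 28 of the 33 members. The choice favours this count, since it used the d2, d3 and d4 levels, and no share over all genes was computed. It is a description and not a trait of the members. The d4 mean over replicates 1 and 3 ranged from 10.6 to 1624 CPM with a median of 28.9 CPM, and was 0.588 to 73.9 times the d3 mean, with a median of 3.4 times. With Gdf11 the members fell to between 1.3% and 32.9% of the d4 mean, a range that the selection fixes at its upper end. The median was 25.1%. Wildtype d4 replicate 2 was above all 3 d4G libraries for 33 of 33 members, against 29.2% of the 12149 genes tested, although it shares these d4G libraries with the choice. It was the lowest of the 3 d4 libraries for 22 members, with a median of 0.848 times the mean of the others. The d4G mean lay below the d3 mean, the level from which Gdf11 treatment began, for 20 members.

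Near the thresholds, Gm22063 (10.6 CPM at d4) and Gm42680 (10.9 CPM) were just inside the minimum level, whereas D230030E09Rik (9.84 CPM) and Foxc2 (9.04 CPM) were just outside. Slc2a1 and Frzb, at 32.9% and 32.7% of the d4 mean, were the last inside the limit on d4G, and Gm13604 and Gm9118 were the first outside, with d4G to d4 ratios of 0.336 and 0.339. For the comparison with earlier stages, the d4 level of Gm26641 was 0.588 and that of Slc2a1 0.594 times the higher of d3 and d2, and that of Fgf4, the nearest outside, was 0.345 times.

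**Figure D1:**
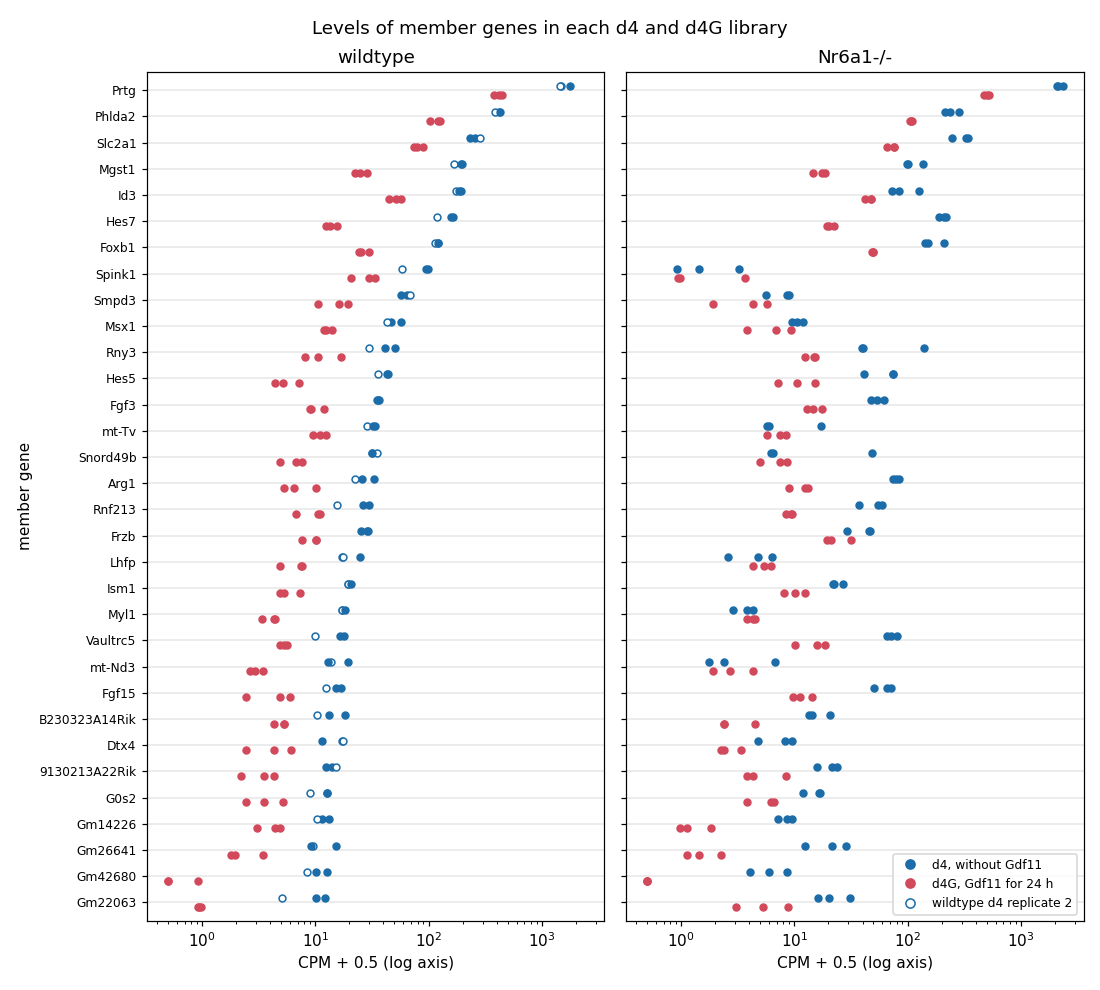
Level of 32 of the 33 members in every d4 (blue) and d4G (red) library, wildtype on the left and Nr6a1-/- on the right, as CPM with 0.5 added on a log axis; open circles are wildtype d4 replicate 2, which did not enter the choice. The d4G libraries lie below the d4 libraries throughout the wildtype panel, and all 3 do so for 24 of the members drawn in the Nr6a1-/- panel, where Spink1, Lhfp, Myl1 and mt-Nd3 are low in both.

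Members differed widely in how much they were expressed at d4 without Nr6a1. For 12 members, all 3 Nr6a1-/- d4 libraries were above all 3 wildtype d4 libraries (12.8% of all genes tested did so), and for 12 others they were below (15.4% of all genes tested). These counts use the wildtype d4 levels that chose the members and are a description.

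Among the members with more RNA in Nr6a1-/- cells at d4 was Fgf15, an FGF ligand. Its level was 14.7, 11.9 and 16.5 CPM in wildtype and 50.4, 70.4 and 65.5 CPM in Nr6a1-/- d4 libraries, and the groups did not overlap. Arg1, which encodes arginase 1, was at 25.6, 22 and 32.2 CPM in wildtype and 73.5, 84.2 and 78.2 CPM in Nr6a1-/-, and the vault RNA Vaultrc5 was at 15.9, 9.49 and 17.4 CPM and 71.6, 65.2 and 79.9 CPM. The fitted genotype differences at d4 on the log2 scale were 2.12 for Fgf15, 1.58 for Arg1 and 2.37 for Vaultrc5.

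Other members had less RNA in Nr6a1-/- cells at d4, and Spink1 was nearly silent. Spink1, a secreted serine protease inhibitor, was at 98.6, 57.5 and 94.2 CPM in wildtype d4 libraries and at 2.74, 0.952 and 0.423 CPM in Nr6a1-/- d4 libraries. Smpd3, which encodes a neutral sphingomyelinase, was at 63.8, 67.8 and 56.8 CPM in wildtype and 5.08, 8.09 and 8.45 CPM in Nr6a1-/-. Msx1, a homeobox gene that responds to BMP signalling, was at 46.6, 42.6 and 56.8 CPM in wildtype and 8.99, 9.99 and 11.4 CPM in Nr6a1-/-. In each of these the wildtype libraries were all above the Nr6a1-/- libraries. The Nr6a1-/- d4 mean was under 10 CPM for 9 of the 33 members.

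The response to Gdf11 was then examined in Nr6a1-/- cells, whose libraries took no part in the choice. Of the 33 members, 27 fell from d4 to d4G and 0 rose at an edgeR FDR below 0.05. The low-count filter was passed by 32 members through at least 1 Nr6a1-/- group. For Gm14226, Gm42680, Gm22063 and B230323A14Rik that group was d4 alone, the high side of the tests against d4G and d3. Their values in these tests are a description, although the counts of members include them. Myl1 passed the filter only through wildtype d4, the group that chose it, and had at most 9 counts in any Nr6a1-/- library. Nothing is read from its test, although the counts of members include it. DESeq2 also gave 0 rises. Over all 12149 genes tested, 9.59% fell and 8.45% rose. The median log2 fold change was -1.98 over the members (-1.99 without Myl1) and -0.02 over all genes, and 28 members had an unadjusted p under 0.05. All 3 d4G libraries were below all 3 d4 libraries for 25 members (11.8% of all genes), and the d4 mean was at least 3 times the d4G mean for 21 members (2.21% of all genes). The median d4G level was 26.6% of the d4 level. Without Nr6a1-/- d4 replicate 1, 25 members fell.

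**Figure D2:**
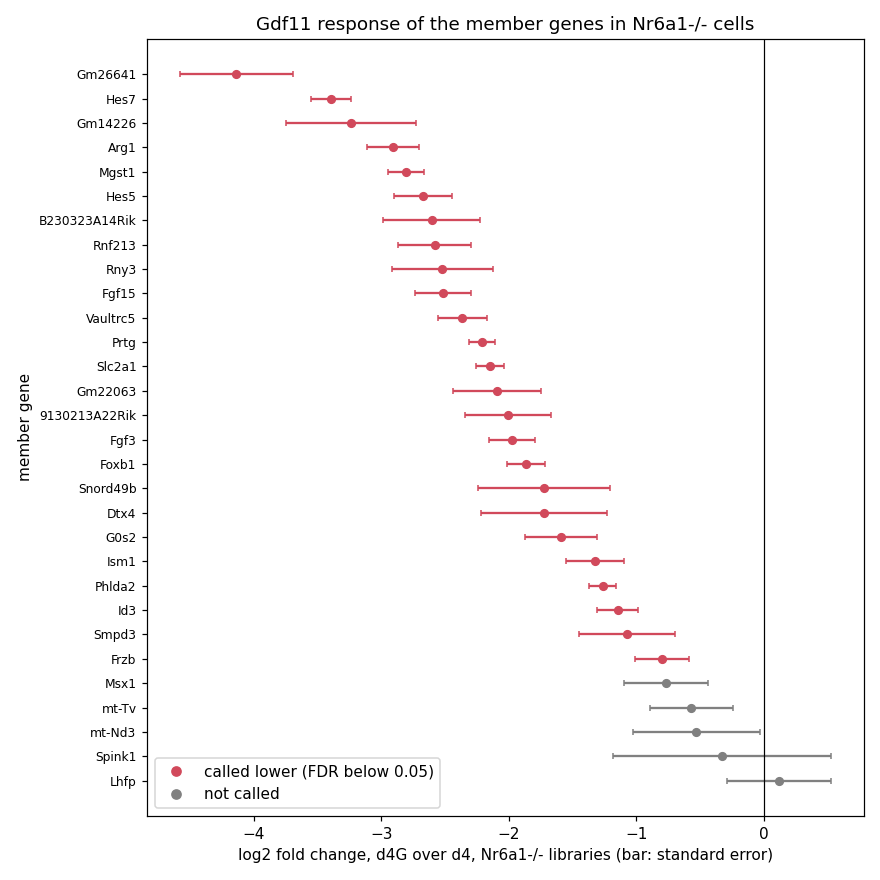
Log2 fold change of d4G over d4 in Nr6a1-/- libraries for 30 of the 33 members, with its standard error from edgeR; red points passed an FDR of 0.05 and grey points did not. Values run from -4.14 for Gm26641 to 0.12 for Lhfp, and the 5 grey points are those nearest to 0; Gm42680, without a count at d4G, and Myl1, with at most 9 counts in a library, are not drawn.

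The 3 members tied to Notch signalling all fell in Nr6a1-/- cells. Hes7 (chr11:69120404-69124055, GENCODE M21 on GRCm38), whose oscillating repressor drives the segmentation clock, was at 164, 119 and 157 CPM in wildtype d4 libraries and at 12.0, 13.1 and 15.2 CPM with Gdf11. Without Nr6a1 it was at 189, 217 and 208 CPM at d4 and at 19, 19.7 and 22 CPM at d4G. The d4 and d4G libraries were far apart in each genotype. The log2 fold change in Nr6a1-/- cells was -3.40 ± 0.16 (SE, edgeR FDR = 4.9e-19).

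Hes5 (chr4:154960923-154962371), the Notch target of neural progenitors, was at 43.6, 35.5 and 42.3 CPM in wildtype at d4 and 6.73, 4.65 and 3.90 CPM at d4G. In Nr6a1-/- libraries it was at 40.7, 73.3 and 74.0 CPM at d4 and 6.65, 14.6 and 10.1 CPM at d4G. The lowest d4 library, replicate 1, was still above every d4G library, and the log2 fold change was -2.67 ± 0.23 (SE, edgeR FDR = 1.1e-11). Dtx4, a Deltex ubiquitin ligase that modulates Notch, was lower than Hes5 in these Nr6a1-/- d4 and d4G libraries. It was at 7.82, 9.04 and 4.23 CPM at d4 and 2.85, 1.91 and 1.76 CPM at d4G. Its fall, with a log2 fold change of -1.72 ± 0.49 (SE, edgeR FDR = 0.011), was not called without Nr6a1-/- d4 replicate 1 (FDR = 0.055) or without d4G replicate 3 (FDR = 0.064).

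Of 3 transcriptional regulators, 2 fell. Foxb1, a forkhead gene of the developing neural tube, was at 209, 152 and 142 CPM at d4 and 49.4, 47.7 and 48.8 CPM at d4G in Nr6a1-/- cells. Id3, an inhibitor of basic helix-loop-helix factors and a BMP target, was at 127, 72.3 and 82.8 CPM at d4 and 46.6, 41.4 and 46.6 CPM at d4G. The groups did not overlap for either gene, and log2 fold changes were -1.86 ± 0.15 for Foxb1 (SE, edgeR FDR = 2.6e-12) and -1.15 ± 0.16 for Id3 (SE, edgeR FDR = 1.1e-06). Wildtype Id3 levels were 193, 174 and 187 CPM at d4 and 51.4, 44.4 and 56.4 CPM at d4G. The d4G levels of Id3 were therefore near each other in the 2 genotypes, and the d4 levels were not. Msx1 did not pass the test in Nr6a1-/- cells. Its d4G libraries held 3.33, 6.37 and 8.80 CPM, all below the lowest of its d4 libraries at 8.99 CPM. Its log2 fold change was -0.77 ± 0.33 (SE, edgeR FDR = 0.1). Without d4G replicate 3 it was called, with an FDR of 0.047.

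All 5 secreted or cell-surface signalling members fell. Prtg, an immunoglobulin-family surface protein of the caudal embryo, had the highest level of all members, at 1489, 1459 and 1760 CPM in wildtype at d4 and 381, 417 and 448 CPM at d4G. In Nr6a1-/- cells it was at 2107, 2348 and 2128 CPM at d4 and 499, 523 and 468 CPM at d4G. The fall in Nr6a1-/- cells was of -2.21 ± 0.10 on the log2 scale (SE, edgeR FDR = 7.6e-19).

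Fgf3 and Fgf15, both FGF ligands, lie within 62.9 kb of each other on chromosome 7. In Nr6a1-/- cells Fgf3 was at 53.6, 61.4 and 46.9 CPM at d4 and 12.4, 17.2 and 14.1 CPM at d4G, a log2 fold change of -1.97 ± 0.18 (SE, edgeR FDR = 6.2e-11). Fgf15 was at 13.8, 10.8 and 9.24 CPM at d4G, a log2 fold change of -2.52 ± 0.22 (SE, edgeR FDR = 3.4e-11). Every d4G library of each gene was below its d4 libraries. Wildtype Fgf3 libraries held 34.4, 36.1 and 35.4 CPM at d4 and 11.5, 8.45 and 8.68 CPM at d4G.

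Frzb, a secreted Wnt antagonist, kept more of its level than other called members. It was at 28.5, 45.7 and 45.2 CPM at d4 and 30.9, 19.1 and 20.7 CPM at d4G in Nr6a1-/- cells, so that 1 d4G library exceeded 1 d4 library. Its log2 fold change of -0.80 ± 0.21 (SE, edgeR FDR = 0.0068) was the smallest among called members, and was not called without d4G replicate 3 (FDR = 0.063). Ism1, which encodes the secreted protein isthmin, was at 21.5, 21.9 and 26.6 CPM at d4 and 7.60, 9.55 and 11.9 CPM at d4G, a log2 fold change of -1.33 ± 0.23 (SE, edgeR FDR = 4e-05).

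The 6 members of metabolism and transport fell without exception. Arg1 showed the steepest change of these, to 8.55, 12.7 and 11.9 CPM at d4G in Nr6a1-/- cells, with a log2 fold change of -2.91 ± 0.20 (SE, edgeR FDR = 8.3e-14). Mgst1, a microsomal glutathione transferase, was at 196, 169 and 193 CPM at d4 and 24.5, 27.9 and 21.7 CPM at d4G in wildtype. Its Nr6a1-/- libraries held 98.5, 135 and 101 CPM and 17.1, 14 and 18 CPM. The fold change in Nr6a1-/- cells was -2.81 ± 0.14 (log2, SE, edgeR FDR = 5.3e-18).

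Slc2a1, the glucose transporter GLUT1, was at 325, 247 and 342 CPM at d4 and 75.1, 65.6 and 75.3 CPM at d4G in Nr6a1-/- cells, a log2 fold change of -2.15 ± 0.11 (SE, edgeR FDR = 6.2e-18). G0s2, an inhibitor of triglyceride lipase, was at 16.0, 16.2 and 11.4 CPM at d4 and 3.33, 5.73 and 6.16 CPM at d4G. These genes had no overlap between d4 and d4G. Smpd3 was called narrowly, at -1.07 ± 0.38 (log2, SE, edgeR FDR = 0.043), with 1.43, 3.82 and 5.28 CPM at d4G. Its FDR was 0.055 with DESeq2, 0.054 without the low-count filter or with Nr6a1-/- libraries alone, and 0.075 to 0.27 without d4 replicate 2 or 3 or without d4G replicate 1 or 2.

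Of 7 further protein-coding members, 4 fell. Phlda2, an imprinted gene that restrains placental growth, was at 422, 383 and 431 CPM at d4 and 102, 121 and 124 CPM at d4G in wildtype. Without Nr6a1 it was at 234, 285 and 215 CPM at d4 and 105, 106 and 110 CPM at d4G, a log2 fold change of -1.26 ± 0.11 (SE, edgeR FDR = 7.7e-12). As with Id3, the d4 libraries of the genotypes were apart and their d4G libraries were close. Rnf213, a large ubiquitin ligase, was at 36.4, 53.8 and 58.7 CPM at d4 and 9.03, 8.91 and 7.92 CPM at d4G, a log2 fold change of -2.58 ± 0.29 (SE, edgeR FDR = 7.3e-09).

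Gm14226 was low in all groups but fell steeply, with 8.99, 6.66 and 8.03 CPM at d4 and 0.475, 0.637 and 1.32 CPM at d4G. Its pooled count was 56 at d4 and 5 at d4G, a ratio of rates of 9.48 with an exact 95% interval of 3.83 to 30.3 (counting error only). 9130213A22Rik, which shares 2186 bases with Hes7 on the opposite strand, had a log2 fold change of -2.01 ± 0.34 (SE, edgeR FDR = 2.5e-05). Its reads cannot be told apart from those of Hes7 if strand was not used in counting.

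The 6 members that were not called were Spink1, Msx1, mt-Tv, Lhfp, Myl1 and mt-Nd3. Each of them was below all wildtype d4 libraries in every Nr6a1-/- d4 library, with d4 means between 1.37 and 10.1 CPM. Lhfp, which encodes a tetraspan membrane protein, was at 5.87, 4.28 and 2.11 CPM at d4 and 3.8, 5.73 and 4.84 CPM at d4G, against 16.8, 17.1 and 24.3 CPM in wildtype at d4. Myl1, a myosin light chain, was at 2.35, 3.33 and 3.8 CPM at d4 and 3.33, 3.82 and 3.96 CPM at d4G, against 16.8, 16.5 and 18 CPM in wildtype at d4. For both genes the 2 sets of Nr6a1-/- libraries overlapped, and the log2 fold change of Lhfp was 0.12 ± 0.41 (SE, edgeR FDR = 0.89). That of Spink1 was -0.33 ± 0.85 (SE, edgeR FDR = 0.84), and 0.75 without Nr6a1-/- d4 replicate 1 (edgeR FDR = 0.75). Over 3 libraries the pooled ratio of d4 to d4G was 0.877 for Lhfp (29 and 28 counts, exact 95% interval 0.503 to 1.53) and 1.21 for Spink1 (10 and 7 counts, 0.416 to 3.74), so that a fall as large as the wildtype one was not detectable for Spink1 at this depth, the d4 to d4G fold in wildtype being 3.5. The upper limit of the pooled ratio was 1.53 for Lhfp, 2.49 for Msx1, 2.15 for mt-Tv and 2.92 for mt-Nd3. These limits hold counting error only and leave out the spread between replicates. Wildtype folds, that of Spink1 included, were chosen to be at least 3, so no weaker response is read from these limits.

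All 7 members of the small and long noncoding RNAs fell. Rny3, a Y RNA, was at 139, 39.5 and 38.9 CPM at d4 and 11.9, 14.6 and 14.5 CPM at d4G in Nr6a1-/- cells. Replicate 1 was more than 3 times as high as the other d4 libraries. The log2 fold change was -2.52 ± 0.40 with that library (SE, edgeR FDR = 8.6e-06) and -1.54 without it (edgeR FDR = 0.00069). Vaultrc5 fell to 18.1, 9.55 and 15.4 CPM at d4G, a log2 fold change of -2.36 ± 0.19 (SE, edgeR FDR = 4.5e-12), with no d4 library standing apart.

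Snord49b, a C/D box small nucleolar RNA, was at 48.5, 5.71 and 5.92 CPM at d4 and 8.08, 4.46 and 7.04 CPM at d4G in Nr6a1-/- cells. Its call rested on replicate 1 alone. With that library the log2 fold change was -1.72 ± 0.52 (SE, edgeR FDR = 0.016), and without it 0.18 (edgeR FDR = 0.85). It was also not called without d4G replicate 2 (FDR = 0.063) or 3 (FDR = 0.053). Gm22063, annotated as a small nuclear RNA inside Cbfb, was at 30.5, 15.7 and 19.9 CPM at d4 and 4.75, 2.55 and 8.36 CPM at d4G. It was called with or without replicate 1, at log2 fold changes of -2.09 ± 0.34 (SE, edgeR FDR = 2.3e-05) and -1.72 (edgeR FDR = 0.00089).

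The small-RNA class moved in the same direction as these members. The summed level of 3471 other small RNA rows was 776 to 931 CPM in wildtype d4, 599 to 663 CPM in wildtype d4G, 817 to 1095 CPM in Nr6a1-/- d4 and 532 to 569 CPM in Nr6a1-/- d4G libraries. Its part in the fall of Rny3, Vaultrc5, Snord49b and Gm22063 was not tested. Such RNAs mostly lack a poly(A) tail, while the libraries were primed on one.

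**Figure D3:**
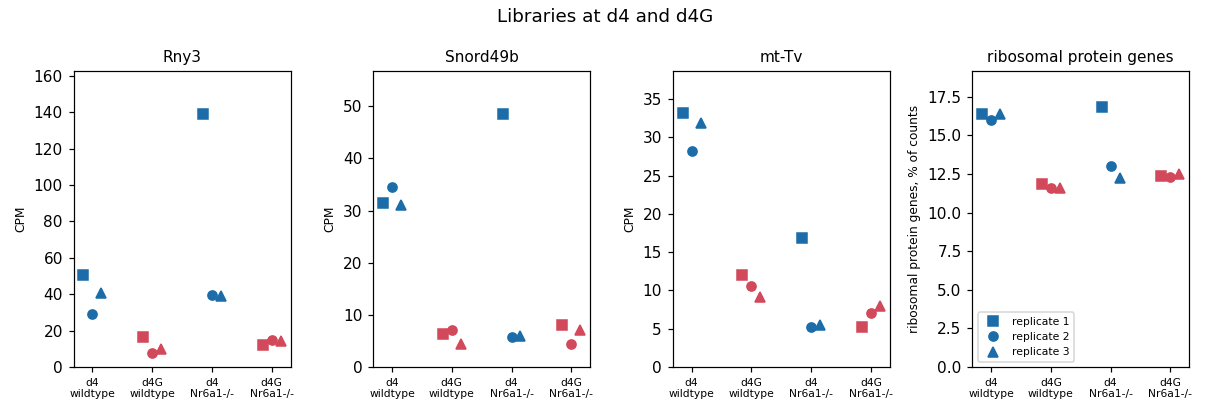
Levels of Rny3, Snord49b and mt-Tv in CPM and the percent of counts from ribosomal protein genes in each d4 (blue) and d4G (red) library, with a marker shape for each replicate. Nr6a1-/- d4 replicate 1 (square) is the highest of its group in all 4 panels, at 139 CPM, 48.5 CPM, 16.8 CPM and 16.9%.

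Among the remaining noncoding members, Gm26641, a lincRNA, was at 28.2, 20.9 and 11.8 CPM at d4 and 0.950, 0.637 and 1.76 CPM at d4G in Nr6a1-/- cells. Every d4 library was well above every d4G library, and the log2 fold change was -4.14 ± 0.44 (SE, edgeR FDR = 3.4e-09). B230323A14Rik, an antisense transcript that shares 2201 bases with Foxb1, was at 19.9, 13.8 and 13.1 CPM at d4 and 1.90, 1.91 and 3.96 CPM at d4G. Gm42680, a transcript of undetermined type on the strand opposite to Sema3a, was at 3.52, 8.09 and 5.49 CPM at d4 and had 0 counts in all 3 d4G libraries, which makes its d4 level at least 11-fold higher when 3 counts over the group are allowed for.

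The 2 mitochondrial members, mt-Tv (a tRNA for valine) and mt-Nd3 (a subunit of respiratory complex I), were not called. In wildtype mt-Tv was at 33.2, 28.2 and 31.9 CPM at d4 and 12.0, 10.6 and 9.11 CPM at d4G, and mt-Nd3 at 18.9, 13.3 and 12.5 CPM and 2.40, 2.96 and 2.17 CPM. Without Nr6a1, mt-Tv was at 16.8, 5.23 and 5.49 CPM at d4 and 5.23, 7 and 7.92 CPM at d4G, and mt-Nd3 at 6.26, 1.90 and 1.27 CPM and 1.43, 3.82 and 2.20 CPM. Only replicate 1 was raised at d4, and neither gene passed the test, with log2 fold changes of -0.57 ± 0.33 for mt-Tv (SE, edgeR FDR = 0.25) and -0.53 ± 0.50 for mt-Nd3 (SE, edgeR FDR = 0.51). Without replicate 1 both values changed sign, to 0.30 (edgeR FDR = 0.68) and 0.55 (edgeR FDR = 0.66). The 37 mitochondrial rows together took 3.43% to 4.60% of counts in wildtype d4 and 3.72% to 4.82% in wildtype d4G libraries, and 4.52% to 5.24% and 4.15% to 5.60% without Nr6a1.

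Fitted Gdf11 responses of the 2 genotypes are set side by side without a test, since wildtype values chose the members. The 4 largest differences (Nr6a1-/- response minus wildtype response, log2) toward a weaker fall were 2.51 for Myl1, 2.10 for Gm22063, 2.07 for mt-Nd3 and 1.86 for Lhfp, although Myl1 had at most 9 counts in a Nr6a1-/- library and Gm22063 only 3 counts in wildtype d4G libraries. Those toward a steeper fall were -1.64 for Gm26641, -1.52 for Gm14226, -1.13 for Rnf213 and -0.93 for B230323A14Rik, leaving out Gm42680. For Hes7 and Fgf3 the difference was 0.13 and 0.01.

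The course of the members before Gdf11 was tested in Nr6a1-/- cells. From d3 to d4, 22 of the 33 members rose, Myl1 included, and 2 fell (edgeR FDR below 0.05), against 13.6% and 12.3% of all genes tested. The median log2 fold change was 1.6 over the members and 0.00 over all genes. The rises were steepest for genes close to silent at d3. Hes5 went from 0.401, 2.15 and 2.29 CPM at d3 to the d4 levels above, a log2 fold change of 5.29 ± 0.30 (SE, edgeR FDR = 2.1e-16). Vaultrc5 rose from 2.40, 1.29 and 2.29 CPM, a log2 fold change of 5.21 ± 0.26 (SE, edgeR FDR = 1.2e-17). No d3 library reached a d4 library in either gene. The 3471 other small RNA rows summed to 350 to 368 CPM in Nr6a1-/- d3 and 817 to 1095 CPM in Nr6a1-/- d4 libraries. The part of this class in the rises of Vaultrc5, Rny3 and Gm22063 was not tested.

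Gm22063 had 3 counts in the d3 libraries together and 158 at d4, a ratio of rates of 55.8 (exact 95% interval 18.7 to 273, counting error only). Gm14226 had 0 counts at d3 and 56 at d4, at least 19.8-fold higher against 3 counts over the group. Gm22063 and Gm14226 passed the low-count filter through no Nr6a1-/- group but d4, so these rises are a description. All 5 signalling members rose, among them Ism1 by 4.29 ± 0.32 (log2, SE, edgeR FDR = 1.1e-12), Fgf15 by 2.96 ± 0.22 (edgeR FDR = 6e-13) and Prtg by 0.62 ± 0.10 (edgeR FDR = 6.2e-06). Hes7 rose from 46.9, 61.9 and 53.5 CPM, a log2 fold change of 2.00 ± 0.13 (SE, edgeR FDR = 1.4e-14).

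The 2 members that fell from d3 to d4 were Slc2a1, from 411, 397 and 439 CPM, with a log2 fold change of -0.37 ± 0.09 (SE, edgeR FDR = 0.0033), and mt-Nd3, from 8.01, 10.7 and 6.49 CPM, with -1.26 ± 0.36 (SE, edgeR FDR = 0.0088). Without d4 replicate 1 the value of mt-Nd3 was -2.35 (edgeR FDR = 5.8e-05). The count of falls rested on single libraries. Without d4 replicate 1 it was 6, with Spink1, mt-Tv, Snord49b and Lhfp added, without d4 replicate 2 it was 0, and without d4 replicate 3 or d3 replicate 2 it was 1.

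**Figure D4:**
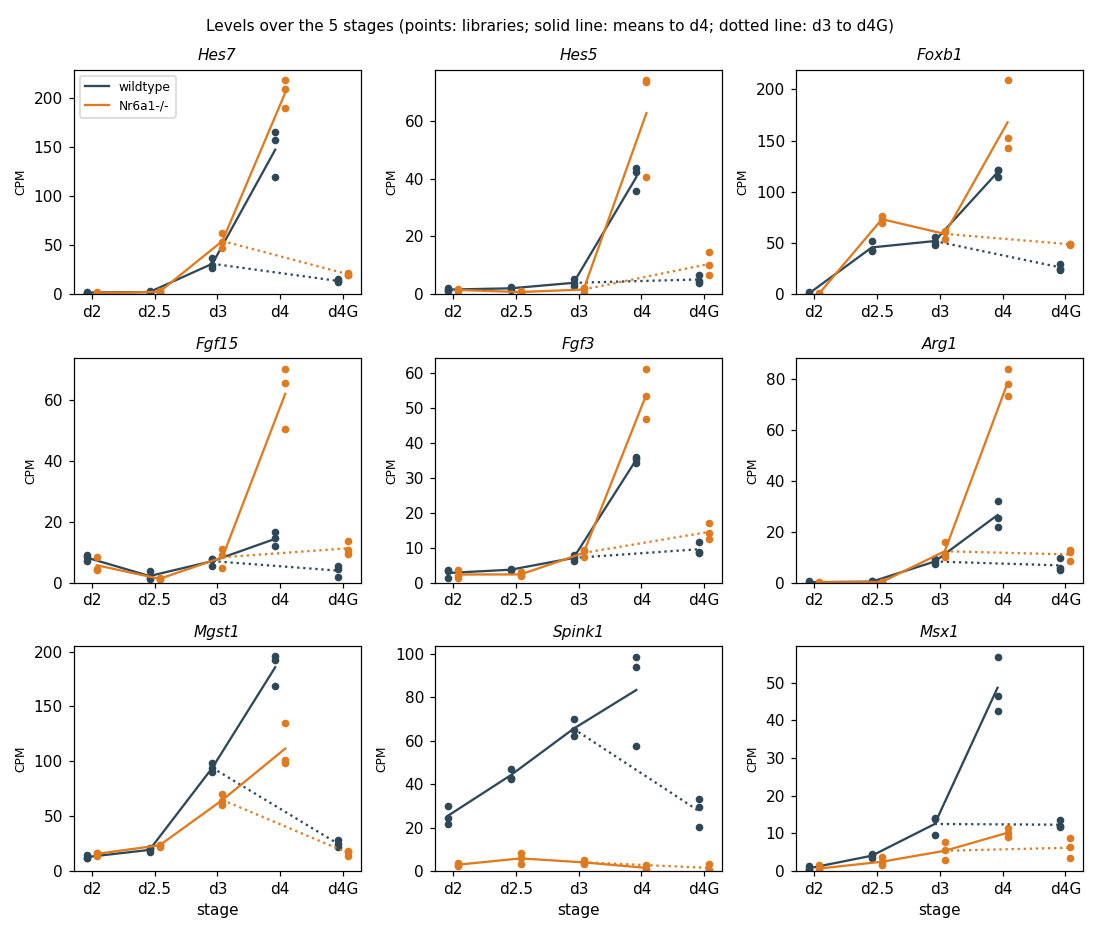
CPM of 9 members at d2, d2.5, d3, d4 and d4G in wildtype (dark) and Nr6a1-/- (orange) cells. Points are libraries, solid lines join the means of 3 libraries up to d4 and dotted lines join d3 to d4G. The rise from d3 to d4 is present in both genotypes for Hes7, Hes5, Foxb1, Fgf15, Fgf3, Arg1 and Mgst1, while Spink1 stays under 10 CPM in every Nr6a1-/- library.

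Levels with Gdf11 can also be set against the d3 level from which the treatment started. This comparison shares its libraries with those above, and its values are given beside them only. Between d3 and d4G in Nr6a1-/- cells, 13 members were lower and 9 higher, Myl1 included (edgeR FDR below 0.05), against 19% and 18.8% of all genes tested. The calls cover 39.4% and 27.3% of the members, and 11 members were not called. Called members ended below or above their starting level. Below it were Slc2a1 (log2 fold change -2.52 ± 0.11, SE, edgeR FDR = 3.3e-20), Mgst1 (-1.95 ± 0.15, edgeR FDR = 3.3e-13), Prtg (-1.59 ± 0.10, edgeR FDR = 3.9e-15) and Hes7 (-1.40 ± 0.18, edgeR FDR = 5.2e-08). Above it were Ism1 (2.96 ± 0.39, edgeR FDR = 1.6e-07), Hes5 (2.62 ± 0.43, edgeR FDR = 5.8e-06), Frzb (1.94 ± 0.28, edgeR FDR = 1.5e-06) and Fgf3 (0.76 ± 0.23, edgeR FDR = 0.0094). The call of Fgf3 was lost without d3 replicate 3 or without d4G replicate 2. That of Rny3 was lost with any d3 or d4G library left out, and those of Spink1, Snord49b and Gm14226 in some alternatives. The difference was within the error for Arg1 (-0.17 ± 0.26, edgeR FDR = 0.65), which had fallen from a d4 level 7.16 times as high in pooled counts.

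Over the first 24 h of CHIR99021, from d2 to d3, 18 members rose, Myl1 included, and 1 fell in Nr6a1-/- cells (edgeR FDR below 0.05), against 16.6% and 15.1% of all genes tested. The median log2 fold change was 1.07 over the members and 0.02 over all genes. Foxb1 had 4 counts in the d2 libraries together and was at 60.9, 61.4 and 54.2 CPM at d3. It was already at 73.1, 76.8 and 69.9 CPM at d2.5. Hes7 rose between d2.5 (3.06, 2.5 and 1.81 CPM) and d3, and by 5.57 ± 0.29 between d2 and d3 (log2, SE, edgeR FDR = 1.2e-17). Arg1 was at 0 CPM in 2 of 3 d2 libraries and at 16.0, 9.88 and 11.1 CPM at d3. The gene that fell was Dtx4, from 17.5, 21.2 and 24.5 CPM to 5.61, 11.2 and 6.11 CPM, a log2 fold change of -1.53 ± 0.29 (SE, edgeR FDR = 6.1e-05). Without d3 replicate 1, Snord49b was called lower as well. Hes5, Fgf15 and Vaultrc5 did not pass the test over this interval.

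Genotypes were compared at d2.5, 12 h after CHIR99021 was added. Of the members, 4 were lower and 5 higher in Nr6a1-/- than in wildtype libraries (edgeR FDR below 0.05), against 3.59% and 2.86% of all genes tested. Spink1 differed most, with 42.3, 47.0 and 43.0 CPM in wildtype and 5.74, 3.21 and 8.33 CPM in Nr6a1-/-, a log2 fold change of -2.92 ± 0.28 (SE, edgeR FDR = 3.2e-09). The groups were fully apart, and the difference had the sign that it had at d4.

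Smpd3 was also lower at d2.5, with 27.9, 36.7 and 34.8 CPM in wildtype and 16.8, 21.1 and 14.5 CPM in Nr6a1-/-, a log2 fold change of -0.91 ± 0.20 (SE, edgeR FDR = 0.0028). Slc2a1 was lower by a log2 fold change of -0.45 ± 0.10 (SE, edgeR FDR = 0.0032) and Phlda2 by -0.48 ± 0.12 (SE, edgeR FDR = 0.0077), the latter not called without wildtype replicate 2 or Nr6a1-/- replicate 3. Foxb1 was higher, at 41.8, 52.2 and 43.0 CPM in wildtype and 73.1, 76.8 and 69.9 CPM in Nr6a1-/-, a log2 fold change of 0.69 ± 0.16 (SE, edgeR FDR = 0.0047). Id3 (0.57 ± 0.16, edgeR FDR = 0.021), Ism1 (1.42 ± 0.41, edgeR FDR = 0.029) and Prtg (0.34 ± 0.10, edgeR FDR = 0.032) were called higher with smaller margins. Id3 lost its call without wildtype replicate 1 or without Nr6a1-/- replicate 1 or 3, Ism1 without wildtype replicate 1 or 2 or without Nr6a1-/- replicate 1 or 2, and Prtg without wildtype replicate 1 or 2 or without Nr6a1-/- replicate 2 or 3. Ism1 was also not called with DESeq2 (adjusted p = 0.087), without the low-count filter (FDR = 0.08) or with d2.5 libraries alone (FDR = 0.074), and 4 members were higher in each of these fits. With 1 library left out, 2 to 5 members were higher, the lowest count being that without wildtype replicate 1. For Id3 the sign at d2.5 was opposite to that at d4, where the fitted genotype difference was -0.93 (log2, no test). Slc2a1 and Prtg had d4 differences of 0.27 and 0.50.

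The Gdf11 and activin pathway itself was read from a list of 44 genes, none of them a member. Of 30 that were tested, 11 rose and 2 fell from d4 to d4G in Nr6a1-/- cells, against 8.45% and 9.59% of all genes tested. The list's median log2 fold change was 0.17 beside -0.02 over all genes. The genes that rose included the Nodal antagonists Lefty1 and Lefty2 and the Smad inhibitors Smad7, Skil and Pmepa1, and those that fell were Smad3 and Fst. Summed levels of the list were 952 to 1118 CPM in Nr6a1-/- d4 and 2182 to 2410 CPM in d4G libraries, and 963 to 1142 CPM and 1845 to 2149 CPM in wildtype.

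Other lists show which cell-type genes moved alongside the members in Nr6a1-/- cells, where 9.59% of all genes tested fell and 8.45% rose. Of 20 presomitic and paraxial mesoderm genes tested, 11 fell, with Hes7 the only member among them, and 5 rose. Of 37 genes of neuromesodermal progenitors and caudal epiblast, 17 fell, the members Prtg and Fgf15 included, and 4 rose. Of 35 neural progenitor genes, 11 fell, the member Hes5 included, and 5 rose. The median log2 fold changes were -0.52, -0.74 and -0.07 for these lists. Of 35 FGF and Wnt feedback genes 7 fell and 11 rose, with no member in the list, and the median was 0.13.

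Lists of other cells that the cultures could hold gave few falls, beside the 9.59% of all genes tested that fell. Lists this short can hold 0 falls at that share. No gene fell among 8 lateral mesoderm, 6 blood and endothelium, 9 neural crest, 7 feeder fibroblast and 22 ESC and epiblast genes tested, and 4, 1, 3, 3 and 2 of them rose. Of 15 endoderm and notochord genes 1 fell and 1 rose, and the member Spink1 did not pass. The summed level of that list, Spink1 included, was 399 to 471 CPM in wildtype d4 and 119 to 127 CPM in Nr6a1-/- d4 libraries, and Cer1, Shh, Afp and Apob had no count in Nr6a1-/- cells at d4 or d4G. Whether this class has a part in the low Spink1 level was not tested. The ESC and epiblast list summed to 525 to 591 CPM in Nr6a1-/- d4 and 1175 to 1373 CPM in d4G libraries, while feeder fibroblast genes summed to 42.6 to 44.7 CPM and 77.0 to 94.9 CPM, with no count for Fap and S100a4. The part of these cells in the falls was not tested. Of 39 imprinted genes 8 fell, the member Phlda2 included, and 9 rose, and of 23 p53 and cell cycle arrest genes 1 fell and 8 rose.

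All 33 members could be placed in GENCODE M21 (GRCm38), where 25 are protein-coding and 8 are not. They lie on 14 chromosomes, the mitochondrial genome included. The gene bodies of 13 members overlap another gene on the opposite strand, among them the pairs Hes7 with 9130213A22Rik and Foxb1 (chr9:69757710-69760940) with B230323A14Rik, of which each gene is a member. Within a pair, 2 members may therefore hold reads of 1 transcript. Fgf3 (chr7:144838083-144844436) and Fgf15 (chr7:144896531-144900953) are on the same chromosome without overlap.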

How the data were processed

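The authors deposited 1 table of whole-number read counts per gene and library, with replicates not pooled. Libraries were primed on poly(A) with an index and a unique molecular identifier, and per the labels were processed with STAR and edgeR on mm10. The annotation, the counter and the use of strand and of molecular identifiers are not given in the sources used here, so amplified copies may be included in the counts. The authors' 5 tables of genes that differ between genotypes hold fold changes and p-values and were not used.

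Of 54134 rows, 12149 exceeded 10 counts and 2 CPM in 2 or more libraries of any 1 group and were tested. With TMM normalisation, edgeR 4.0.16 (under R 4.3.3) was run on all 30 libraries in a single design of 10 groups, leaving 20 residual degrees of freedom. Comparisons used glmQLFit and glmQLFTest, 2-sided, and called genes with a Benjamini-Hochberg FDR below 0.05 over all genes tested. A standard error is the size of the log2 fold change over the root of its F statistic. The code of the fit was run on simulated counts with changes placed in the Nr6a1-/- d4G libraries only. Those counts held no difference between pools or other stages, so they do not bear on the calls made here. Listed CPM values are counts over the library total. Depth limits single genes as given in the text.

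Members, gene lists and role groups were chosen with earlier results of these data known, and 2 of 9 motifs (RBPJ and GGCGCC) and the role groups were added after the members were seen. Members named with values are the 6 with the highest wildtype d4 level, the 6 steepest falls and all rises in Nr6a1-/- d4G against d4, the 6 not called there, the 4 largest called changes in each direction from d3 to d4 and between genotypes at d2.5, members of a list, those nearest each threshold, and examples of each role, the last chosen after their values were seen. Alternatives were RLE factors, no low-count filter, DESeq2 1.42.0, a fit of Nr6a1-/- or of d2.5 libraries alone, a replicate block, a fit without wildtype d4 replicate 2, each library left out in turn, and other thresholds for membership. The values of 1 member are not reported here, although the counts include it.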

Additional observations from a re-analysis of the deposited data

How the results depend on the processing

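The count of members falling from d4 to d4G in Nr6a1-/- cells was 26 to 27 under the other fits and 25 to 26 with 1 library left out, and 23 of the 27 members were called in all 12 alternatives. The exceptions were Smpd3, Snord49b, Frzb and Dtx4. Membership depended on its thresholds, with 20 members at a minimum of 20 CPM, 16 with the stricter limit on d4G, 38 with TMM-scaled CPM, 29 with d4 replicate 2 included and 33 to 41 with 1 wildtype library left out. The last sets did not always hold the same genes. They shared 28 to 33 members with the main set, the fewest without d4 replicate 3. With d4 replicate 2 included, Rnf213, mt-Tv, Gm42680 and Gm22063 were no longer members. Falls from d3 to d4 ranged from 0 to 6 with 1 library left out, and falls from d2 to d3 from 1 to 2, with 2 also without the low-count filter. Between d3 and d4G, 12 to 13 members were lower and 8 to 9 higher under the other fits. With 1 library left out these counts were 11 to 13 and 7 to 8. Members higher in Nr6a1-/- at d2.5 numbered 4 to 5 under the other fits and 2 to 5 with 1 library left out. Of 1959 values of single members, 1880 kept their direction and side of the threshold or changed sign without being called in either fit (50 values), 67 lost a call and 10 gained one. The 2 that reversed were those of Snord49b without Nr6a1-/- d4 replicate 1, at 0.18 for d4G against d4 and -1.61 for d4 against d3 (log2). With other libraries left out, these values reached -2.19 and 0.76.

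Same-numbered libraries are not stated to share a culture, and their deviations from the group means correlated at 0.012 to 0.036 between Nr6a1-/- d4 and d4G and at no more than 0.13 in any comparison. With the replicate number as a block, 27 members fell from d4 to d4G, 22 rose and 2 fell from d3 to d4, 19 rose from d2 to d3, and 4 were lower and 5 higher at d2.5. Depth limits the members under 10 CPM, whose counts over 3 libraries leave wide intervals.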
